A study of Mus musculus with 117 samples.

Results

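The 7 normal uterus samples, 4 of Prom1-positive and 3 of Prom1-negative sorted cells, were set against normal cells sorted the same way from 5 other mouse tissues: prostate, lung, intestine, liver and stomach. They were chosen by the tissue and sort given in the sample titles, from 51 sorted normal samples and 117 samples in the series. The other 44 sorted samples comprised 3 Prom1-positive and 5 Prom1-negative prostate samples, 3 and 7 lung samples, 3 and 5 intestine samples, 4 and 7 liver samples, and 3 and 4 stomach samples. All sorted samples were labelled as normal tissue of the C57BL/6 strain, dissociated to single cells and separated with magnetic beads against Prom1 (prominin 1, also CD133), a membrane protein of the apical surface of epithelial cells that is widely used to enrich stem and progenitor cells. The labels give no age, sex, cycle stage or treatment of the mice and no purity of the sort. The series' design text names Prom1 conditional mutants, but the sample labels carry no genotype, so which sorted samples came from such animals is not given. Nothing in the labels says which samples are from different animals, and the main fits took all samples as independent. Each p-value therefore reflects only the spread between samples, which may in part be technical.

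The uterus develops from the Müllerian duct. Hox genes of the posterior part of the clusters, together with Emx2, Pax8, Msx1 and Wnt genes, pattern the duct and its surrounding mesenchyme. The adult organ has a lumen lined by an epithelium, glands that open into it, a stroma rich in collagen, and an outer wall of smooth muscle. Oestrogen and progesterone act through nuclear receptors in these compartments and drive its cyclic growth and secretion, and macrophages and other immune cells populate the stroma.

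RNA was hybridised to Affymetrix arrays of 1 colour, and a level below is the log2 signal of a gene's brightest probe set, so a difference of 1 is a 2-fold difference. The uterus contrast is the mean of the Prom1-positive and Prom1-negative uterus means minus the mean of the 5 other tissues, each taken in the same way. A gene was tested if its signal was above the array median in at least 3 of the 51 arrays, and it was called if the adjusted p of limma, a linear model with a variance shared across genes, was under 0.05 after Benjamini-Hochberg adjustment over all 14081 genes tested. A probe set below the array median was taken as near background, and a difference from such a level is a lower bound. Errors are standard errors (SE) of the contrast over 7 uterus and 44 other samples. Levels are compared between samples for 1 gene and not between genes. In bulk samples such as these, fewer cells of a type and less RNA per cell cannot be told apart.

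The uterus arrays had medians and upper quartiles within the range of the others. Their medians lay between 3.65 and 3.74 and their upper quartiles between 6.33 and 6.45, against 3.63 to 4.01 and 5.05 to 6.51 on the 44 other arrays. The 3′/5′ ratio of Gapdh, a sign of RNA integrity that is near 0 on the log2 scale for intact RNA, ran from 0.31 to 1.54 in uterus and from 0.21 to 2.17 elsewhere. The same ratio of Actb ran from 0.34 to 2.41 in uterus and from 0.41 to 1.85 elsewhere. Among the uterus samples, Prom1-negative samples 1 and 2 had the highest ratios, 1.87 and 2.41 for Actb and 1.29 and 1.54 for Gapdh, and Prom1-negative sample 3 the lowest, 0.34 and 0.31. Prom1-positive sample 4 was next lowest, at 0.44 and 0.36. The other positive samples lay between 0.84 and 1.02 for Actb and between 0.68 and 0.88 for Gapdh. The library outside the uterus that stood apart was 1 of the 4 negative stomach samples, with the upper quartile of 5.05 and the Gapdh ratio of 2.17. The sample codes in the titles of the uterus samples were higher than those of every other sample, so any effect that goes with the code and the tissue cannot be told apart. Xist, the RNA that coats the inactive X chromosome in females, was above the Y-linked gene Eif2s3y in 7 of 7 uterus and 7 of 7 stomach samples, but in 2 of 8 intestine, 1 of 10 lung, 0 of 8 prostate and 0 of 11 liver samples. Tissue and sex therefore cannot be told apart for most of the samples compared.

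Of the 14081 genes tested, 6727 (47.8%) were called in the uterus contrast, 3728 (26.5%) higher and 2999 (21.3%) lower in uterus. With quantile normalization repeated over the 51 arrays the split was 3198 higher and 3402 lower, and the median of all genes moved by -0.11. A gene list is read against the first shares. Only 573 genes (4.07%) were higher in uterus than in each of the 5 other tissues by limma, and 81 (0.575%) were lower than in each. In 73 genes (0.518%) the lowest of the 7 uterus samples lay above the highest of the 44 others, and in 2 genes (0.0142%) the highest uterus sample lay below all others. Among the 15 named genes with the largest differences of the first kind were Sprr2f, Bcat1, Ltf, Pgr, Col6a4, Dio2, Padi1, Hsd11b2, Hoxa10 and Wnt5a.

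The proximal promoters of 4 of these 15 genes are shown because oestrogen is a known regulator of the Sprr2f, Ltf, Padi1 and Pgr genes in the uterus. Each is the 250 bases before the RefSeq start site in GRCm38.p6, written 5′ to 3′ on the gene's strand, with capitals at AGGTCA or its reverse complement TGACCT, the half-site letters of oestrogen and several other nuclear receptors.
Sprr2f (chr3:92364937-92365186, plus strand): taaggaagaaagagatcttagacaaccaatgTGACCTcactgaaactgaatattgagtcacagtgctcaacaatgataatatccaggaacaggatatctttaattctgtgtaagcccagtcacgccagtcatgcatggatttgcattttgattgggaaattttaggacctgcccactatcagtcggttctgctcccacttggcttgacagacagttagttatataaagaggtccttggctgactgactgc
Ltf (chr9:111019042-111019291, plus strand): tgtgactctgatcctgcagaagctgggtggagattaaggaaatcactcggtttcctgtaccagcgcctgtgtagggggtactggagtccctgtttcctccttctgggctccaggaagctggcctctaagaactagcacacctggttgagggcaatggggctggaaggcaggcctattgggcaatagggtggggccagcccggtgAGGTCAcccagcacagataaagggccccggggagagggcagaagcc
Padi1 (chr4:140845779-140846028, minus strand): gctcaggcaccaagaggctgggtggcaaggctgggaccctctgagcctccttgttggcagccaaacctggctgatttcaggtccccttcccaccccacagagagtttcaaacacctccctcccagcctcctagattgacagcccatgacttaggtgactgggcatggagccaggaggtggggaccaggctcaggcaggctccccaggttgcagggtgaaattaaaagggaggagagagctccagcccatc
Pgr (chr9:8899583-8899832, plus strand): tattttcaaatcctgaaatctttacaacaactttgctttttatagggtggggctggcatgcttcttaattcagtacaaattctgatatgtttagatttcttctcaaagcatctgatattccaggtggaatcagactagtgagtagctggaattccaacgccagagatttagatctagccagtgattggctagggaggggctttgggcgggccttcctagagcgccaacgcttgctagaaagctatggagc
Both strands were searched. The match in Ltf begins 46 bases before the start site and that in Sprr2f lies near the far end of its window, and the windows of Padi1 and Pgr hold none. AGGTCA was found in 3 of the 11 leading genes with a promoter in the RefSeq table (Sprr2f, Ltf and Bcat1), and in 4607 of all 32851 promoters (14%). The first count is by gene, matched if any of its promoters was, and the second is by promoter, so they are unlike units. The longer palindrome of GGTCA and TGACC with any 3 bases between them, which overlaps the first motif, was found in 21 promoters (0.0639%) and in none of the leading genes. These matches describe letters and not binding, and the share among so few genes was not tested.

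Sprr2f had the largest difference of these 15 genes, and Ltf, Lcn2 and Padi1 were other epithelial or secretory genes among them. Sprr2f, a small proline-rich protein of the cornified envelope that is expressed in uterine epithelium, had levels of 11.12, 11.87 and 12.55 in the lowest, median and highest of the 7 uterus samples, and no more than 6.64 in any of the 44 others. The ranges did not overlap, and the difference was 8.72 ± 0.28 (SE; limma, Benjamini-Hochberg adjusted p = 3.55e-28). Ltf, the iron-binding secretory protein lactoferrin, lay between 10.96 and 12.39 with a median of 11.79 in uterus, against at most 8.30 elsewhere. Its difference was 6.89 ± 0.42 (adjusted p = 5.88e-18). Lcn2, a siderophore-binding lipocalin of epithelia and neutrophils, lay between 10.68 and 13.10 with a median of 12.17, above the highest other sample at 9.89. Padi1, which converts arginine to citrulline in proteins, ran from 7.39 through 9.29 to 10.37 and was at most 3.63 elsewhere, so that the difference of 6.35 ± 0.19 (adjusted p = 3.97e-29) is measured from near background and is a lower bound.

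The hormone receptor gene Pgr and the hormone-converting enzyme genes Hsd11b2 and Dio2 were also among the 15. Pgr, the progesterone receptor, ran from 9.56 to 11.33 with a median of 9.78 in uterus, and its highest value in the other 44 samples was 6.09. Every uterus sample was above every other sample, with a difference of 6.86 ± 0.25 (adjusted p = 3.76e-26). Hsd11b2, the enzyme that inactivates glucocorticoids, ran from 8.56 through 9.49 to 11.29 against at most 6.82, a difference of 5.75 ± 0.22 (adjusted p = 1.17e-25). Dio2, which activates thyroid hormone, ran from 8.46 through 9.91 to 11.47 against at most 5.52, a difference of 6.48 ± 0.21 (adjusted p = 3.55e-28). For both enzymes the uterus and the other samples were fully separate, which the rule that chose the 15 genes required. With the mean of all probe sets of a gene in place of the brightest, the difference of Pgr was 3.51, still called, since the smallest difference among its 3 probe sets was 0.98.

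The other leading genes had roles in metabolism, matrix, plasma-type proteins and signalling. Bcat1, the cytosolic branched-chain amino acid transaminase, ran from 8.97 to 10.84 in uterus with at most 5.25 elsewhere (difference 6.98 ± 0.20, adjusted p = 2.4e-30). Fads2b, a member of the fatty acid desaturase family, ran from 8.83 to 10.55 with at most 4.59 elsewhere (6.66 ± 0.14, adjusted p = 1.12e-35). A2m, the protease inhibitor alpha-2-macroglobulin, was more spread within the uterus, from 7.31 through 9.96 to 11.55, yet still above the other maximum of 4.58 (6.48 ± 0.22, adjusted p = 1.03e-27). The separation of all 3 genes from every other sample was required by the rule that chose them. Averaged over all probe sets, the difference of Bcat1 was 4.48 and that of Col6a4 3.91. Fxyd4, a regulator of the sodium pump, Col1a1 and Col6a4, chains of fibrillar and beaded-filament collagen, Hoxa10 and Wnt5a completed the set, with differences between 5.21 and 6.70. In the opposite direction the same rule, which would have taken 10 genes, found 1 named gene. Sec14l2, a lipid transfer protein, ran from 2.81 through 3.27 to 3.82 in uterus and was at least 3.90 elsewhere, a difference of -3.20 ± 0.29 (adjusted p = 1.27e-12) that is a lower bound because 5 of the 7 uterus levels were near background.

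**Figure D1:**
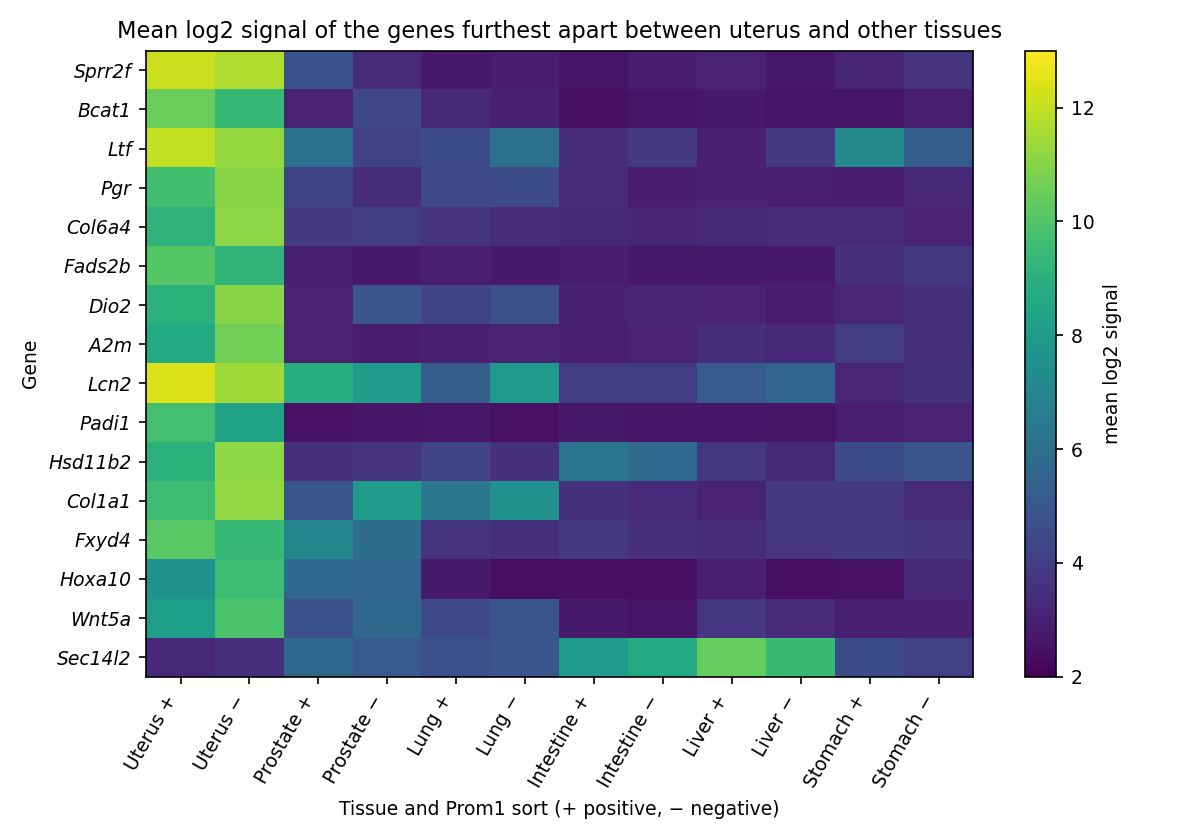
Mean log2 signal (colour, scale from 2 to 13) of the 15 leading genes higher in uterus and of Sec14l2, one gene per line, in the 12 groups of sorted cells. The 2 uterus groups are the bright columns for the 15 genes and the dark ones for Sec14l2.

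Developmental patterning genes were mostly higher in uterus. Of 27 tested, 20 were called higher and 2 lower, beside 26.5% and 21.3% of all genes, and the median difference was 2.18 against 0.02 over all genes. Hoxa10, a Hox gene of the Müllerian duct required for uterine receptivity, had levels of 6.78, 7.91 and 9.88 in the lowest, median and highest uterus sample against at most 6.16 elsewhere. All uterus samples were above all others, with a difference of 5.34 ± 0.23 (limma, adjusted p = 2.28e-23). Hoxd10 ran from 4.89 through 5.43 to 8.05 against at most 4.14, again without overlap (3.66 ± 0.14, adjusted p = 1.17e-25). Hoxa11, which overlaps Hoxa10 in the developing uterus, ran from 4.05 through 6.06 to 7.52 against at most 4.86, so 1 of the 7 uterus samples lay within the range of the others (3.10 ± 0.17, adjusted p = 1.18e-19). Hoxd9 (3.22), Hoxa9 (1.12, and 0.68 with array weights) and Hoxd11 (0.75) were also called higher.

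The 5′-most Hox genes did not follow. Hoxa13, the gene of the vagina and lower tract, differed by -0.24 and was not called (adjusted p = 0.48). Hoxd13 lay near background in the uterus, between 2.35 and 2.80, while the prostate mean was 7.0 and the highest other sample 8.49 (difference -1.03 ± 0.19, adjusted p = 2.26e-05). Hoxb13, known as a prostate lineage gene, lay between 2.88 and 3.35 in uterus, against a prostate mean of 10.4 (-1.76 ± 0.13, adjusted p = 2.91e-15). Both negative differences are lower bounds, and without prostate among the other tissues that of Hoxd13 was -0.18 and not called (adjusted p = 0.209) and that of Hoxb13 was -0.35.

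Other transcription factors of the reproductive tract separated the uterus about as well. Emx2, a homeobox factor without which the urogenital tract does not form, lay between 6.63 and 8.07 with a median of 7.09 in uterus and at most 6.53 elsewhere (4.38 ± 0.14, adjusted p = 1.34e-28). Foxl2, best known from the ovary and also active in uterine stroma, ran from 5.84 through 7.15 to 9.30 against at most 4.50 (4.32 ± 0.12, adjusted p = 2.4e-30). Msx1, a homeobox gene of the luminal epithelium, ran from 6.28 through 8.40 to 9.14 against at most 6.18 (3.87 ± 0.26, adjusted p = 1.42e-16). These 3 genes did not overlap between uterus and other samples. The highest Msx1 and Hoxa10 levels outside the uterus came close to it, and the stomach library with the low upper quartile was among the samples with raised values of both, at 5.9 and 5.7. Pax8, a marker of Müllerian epithelium (3.24 ± 0.14, adjusted p = 1.24e-23), and Wt1, a gene of mesothelium and stroma (3.35 ± 0.20, adjusted p = 3.48e-18), were higher with some overlap, as were Osr2 (4.32), Tcf21 (2.73) and Gata2 (2.18). Sox17, which is needed for uterine glands, ran from 7.57 to 9.39 but reached 10.06 in another sample, with a lung mean of 8.1. With the mean of all probe sets the differences of Foxl2, Msx1 and Osr2 were 2.13, 2.47 and 2.07, all still called. Wnt7a, Hand2, Foxa2 and Tbx3 were not called, and Isl1 was lower at -1.81 ± 0.30 (adjusted p = 3.23e-06).

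**Figure D2:**
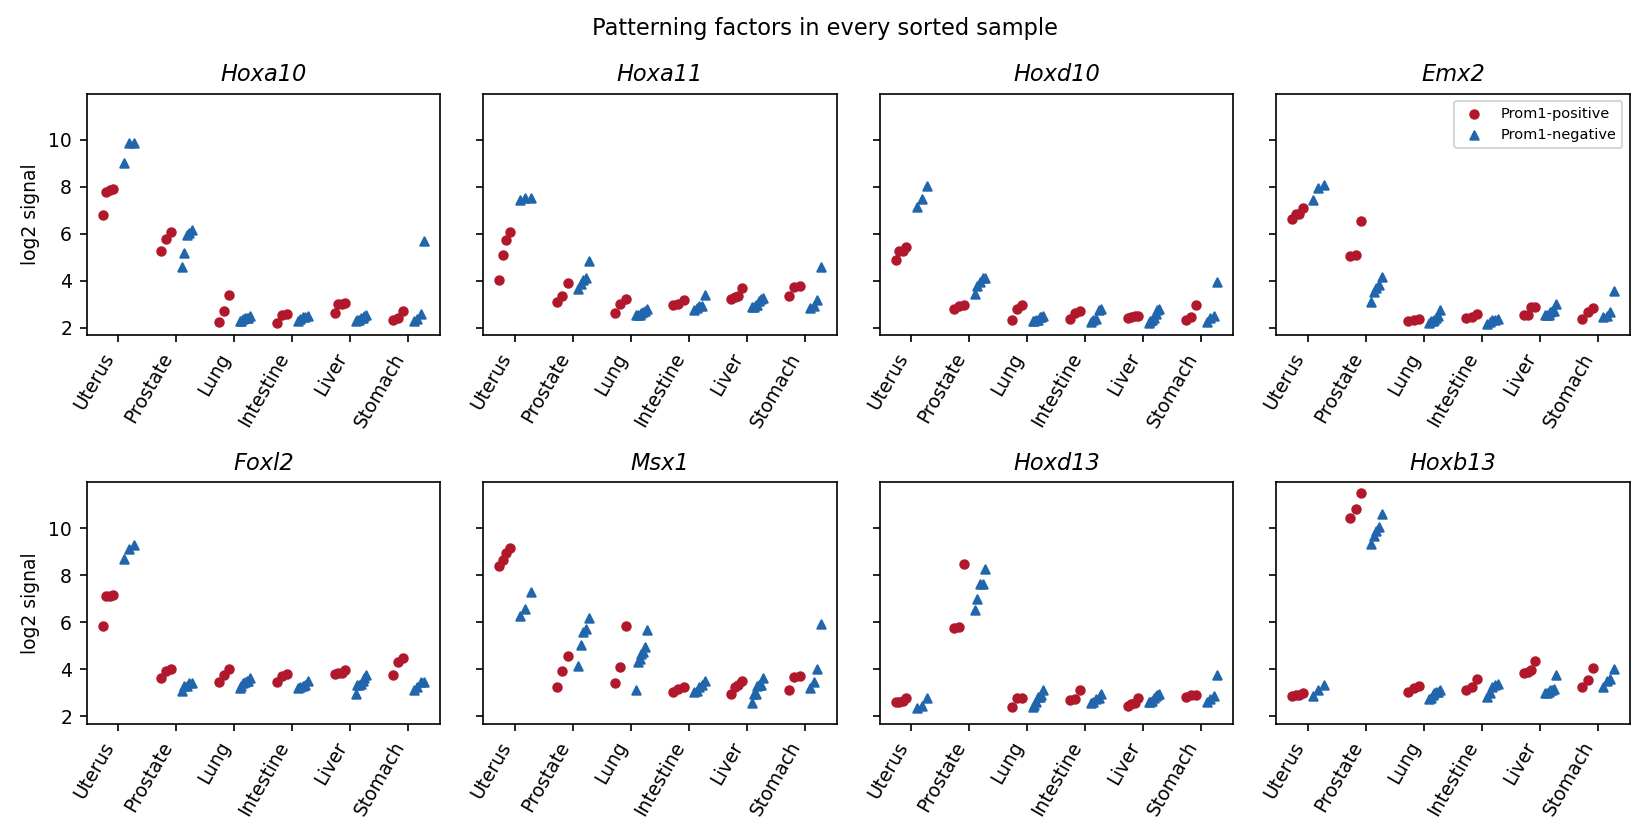
Log2 signal of 8 patterning genes in each of the 51 sorted samples by tissue; circles are Prom1-positive and triangles Prom1-negative samples. Hoxa10, Hoxd10, Emx2, Foxl2 and Msx1 are highest in uterus, whereas Hoxd13 and Hoxb13 are high in prostate and near background in uterus.

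Genes linked to oestrogen response were nearly all higher in uterus. Of 20 tested, 18 were higher and 1 lower, with a median difference of 3.52. The list was drawn with knowledge of uterine biology and holds Sprr2f, Ltf, Padi1 and Pgr described above. Greb1, an oestrogen-induced coactivator, lay between 7.47 and 8.60 with a median of 7.69 in uterus and at most 6.86 elsewhere (3.84 ± 0.19, limma adjusted p = 1.96e-21). Padi2, a relative of Padi1, ran from 7.64 through 8.76 to 10.83 and its lowest value only just passed the other maximum of 7.63 (4.34 ± 0.28, adjusted p = 1.59e-17). Igf1, the growth factor that relays the oestrogen signal from stroma to epithelium, ran from 10.33 to 12.14, with the same maximum of 12.14 among the other samples (3.54 ± 0.31, adjusted p = 6.58e-13). Muc1, the mucin of the luminal surface, was higher than the mean of the other tissues (3.51 ± 0.35, adjusted p = 2.52e-11), but its stomach mean was 10.3 and its uterus median 9.04. Sprr2d (3.79) and Padi4 (3.29) were also called higher. The gene that went the other way was Spdef, a factor of secretory and goblet cells, at -2.43 ± 0.19 (adjusted p = 1.69e-14), and Ccnd1, the G1 cyclin, was not called. The difference of Greb1 was 2.03 with the mean of all its probe sets.

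The receptors themselves could be read only in part. Esr1, the main oestrogen receptor of the uterus, is represented by 1 probe set that lay between 3.1 and 3.6 in all uterus samples, below the array median, and was not tested, so the arrays carry no usable level of it. Among the 16 steroid receptors and cofactors tested, 5 were higher, 5 lower and 6 not called, with a median of 0.06, close to the median of all genes. Nrip1, a corepressor needed for ovulation, was higher by 1.24 ± 0.25 (adjusted p = 6.78e-05). Nr3c2, the mineralocorticoid receptor, lay between 3.93 and 4.76 and was lower by 1.65, and Fkbp5, a chaperone induced by androgen and glucocorticoid, differed by -1.46 ± 0.25 (adjusted p = 6.7e-06) with a prostate mean of 9.8, and by -0.84 without prostate. Nr3c1, the glucocorticoid receptor, differed by 0.08 and was not called.

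Of 19 genes linked to progesterone, 15 were higher and 1 lower, with a median of 1.75. Vcan, a proteoglycan of loose matrix, ran from 6.27 through 7.52 to 9.83 in uterus (4.16 ± 0.25, limma adjusted p = 2.77e-18). Alox15, a lipoxygenase of uterine epithelium, was higher by 3.60 ± 0.55 (adjusted p = 6.33e-07), and Acod1, the itaconate-producing enzyme also known from activated macrophages, by 3.26 ± 0.48 (adjusted p = 2.96e-07). Among 19 genes of glands and lumen, 11 were higher, 2 lower and 6 not called, with a median of 0.71. Calb1, a calcium-binding protein of uterine epithelium, ran from 7.06 through 7.97 to 9.72 against at most 4.38, without overlap (5.14 ± 0.17, adjusted p = 1.22e-27). Lif, the gland cytokine required for implantation, was higher by 2.94 (adjusted p = 2.18e-08). Averaged over all probe sets, the differences of Calb1, Lif and Vcan were 1.68, 0.96 and 2.18, all still called. Aldh1a1, a retinal dehydrogenase, was lower than in each of the 5 other tissues although its uterus levels were high on the array, from 8.11 through 8.99 to 9.56 (-2.24 ± 0.30, adjusted p = 4.45e-08).

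The 7 uterus samples themselves differed most in the protease gene Prss28, followed by Serpina1c, a member of the alpha-1-antitrypsin family, and Prss29. This was read from the SD within each sort group, pooled over both, and the genes were chosen after their values were seen, so no test is given. The median SD over all genes was 0.27, and it was above 1 in 185 genes (1.31%) and above 2 in 16. Prss28, an implantation serine protease of uterine glands, had levels of 6.20, 10.58, 12.48 and 3.0 in the 4 Prom1-positive samples and of 6.34, 9.62 and 2.54 in the 3 Prom1-negative ones, an SD of 4.0. Its relative Prss29 had levels of 7.51, 10.62, 12.20 and 3.92, then 7.14, 9.63 and 3.36. Spink1, an inhibitor of trypsin-like proteases, had 8.89, 9.67, 11.74 and 3.37, then 6.47, 8.92 and 2.81. In all 3 genes Prom1-positive sample 4 and Prom1-negative sample 3 were the lowest of their groups. The same samples were lowest for the kallikrein Klk1, at 5.49 against 10.34 to 13.27 in the other positive samples and at 5.26 against 7.91 and 8.48 in the other negative ones. Hsd11b1, which regenerates active glucocorticoid, had levels of 5.78, 11.66, 9.61 and 5.52, then 8.68, 8.58 and 6.76, so that its second low positive sample was sample 1. Despite this spread, Prss28 and Prss29 were called higher in uterus (3.97 ± 0.58 and 4.34 ± 0.53, limma adjusted p = 2.63e-07 and 3.53e-09). Their lowest uterus samples, however, lay inside the range of the other tissues. The labels give no cycle stage for these samples, and whether stage goes with the spread was not tested. The sample code of Prom1-negative sample 3 comes directly before that of Prom1-positive sample 4. Whether both came from the same animal is not given and was not tested. These 2 samples also had the lowest 3′/5′ ratios of the 7 uterus arrays. The ratios were 0.31 and 0.36 for Gapdh and 0.34 and 0.44 for Actb, against at least 0.68 and 0.84 in the other uterus samples. Whether the ratio goes with the spread was not tested.

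**Figure D3:**
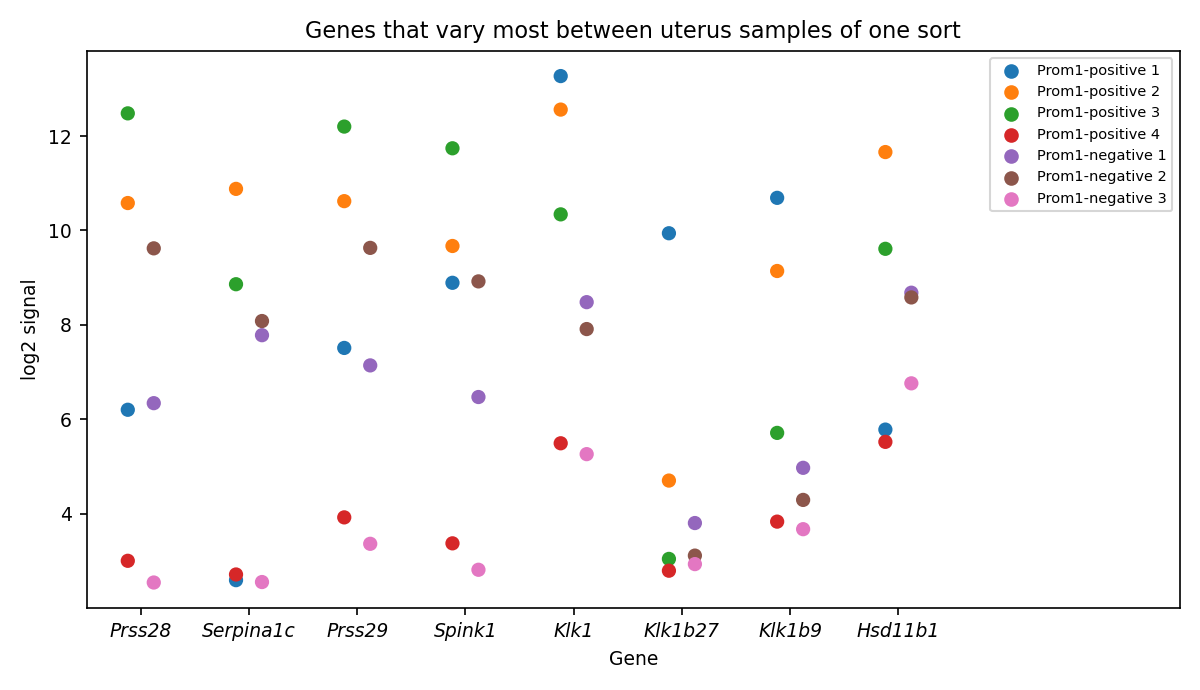
Log2 signal of the 8 genes with the largest spread within the uterus sort groups, with a point for each of the 4 Prom1-positive and 3 Prom1-negative samples. Positive sample 4 and negative sample 3 are low for Prss28, Prss29, Spink1 and Klk1.

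Stroma and matrix genes formed the other large block. Of 23 collagen and matrix genes 21 were higher and none lower, with a median difference of 3.56. Of 24 stromal genes 20 were higher and 1 lower, with a median of 2.89. Prostate and lung were closer to uterus than the other tissues were. The mean level of the collagen list was 7.88 to 10.22 in uterus, 5.18 to 9.37 in prostate and 7.32 to 9.05 in lung. It was 3.49 to 6.26 in intestine, liver and stomach. The stromal list was at 6.57 to 8.42 in uterus, 4.89 to 7.55 in prostate and 5.05 to 6.61 in lung. Col3a1, a fibrillar collagen, lay between 12.34 and 13.42 in uterus and reached 12.79 elsewhere (4.81 ± 0.40, limma adjusted p = 1.36e-13). Its difference from lung alone was 1.51. Col6a3 lay between 10.86 and 12.95 in uterus (5.80, adjusted p = 7.49e-21). Lum, a proteoglycan of collagen fibrils, ran from 10.21 through 11.07 to 12.42 against at most 11.05, so that the uterus median only just passed the other maximum (5.87 ± 0.33, adjusted p = 1.98e-19). Mmp11, a matrix metalloproteinase of remodelling stroma, ran from 5.99 through 8.10 to 10.20 against at most 6.99 (4.12 ± 0.27, adjusted p = 6.58e-17). Cxcl14 (4.11) and Dcn (3.66) were higher as well. The stromal gene that was lower was Wnt2, at -2.49 ± 0.42 (adjusted p = 3.75e-06), whose liver mean was 8.3 while the uterus lay between 2.95 and 3.89.

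Smooth muscle genes went the same way, with 16 of 19 higher, none lower and a median of 2.7. The mean level of the list was 6.69 to 8.28 in uterus, 5.53 to 7.35 in prostate and 4.8 to 7.62 in lung. It was 4.04 to 5.13 in intestine, liver and stomach. Oxtr, the oxytocin receptor of the myometrium, ran from 5.22 through 6.97 to 9.13 in uterus and was at most 3.70 elsewhere, without overlap (4.48 ± 0.14, limma adjusted p = 1.44e-28). Synpo2, an actin-binding protein of muscle, ran from 6.76 through 7.84 to 9.38 against at most 6.52, again without overlap (4.63 ± 0.29, adjusted p = 1.41e-17). Acta2 (4.03), Gja1, a gap junction connexin (3.67), Actg2 (3.10) and Des (2.96), which are shared by smooth muscle of other organs, were called higher with smaller differences. With the mean of all probe sets the differences of Oxtr, Synpo2, Acta2 and Des were 2.24, 2.16, 1.92 and 1.56, all still called. Pcp4, a calmodulin regulator, differed by 4.07 from the mean of the other tissues but had a prostate mean of 9.0.

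Of 15 Wnt ligands, 5 were higher, 3 lower and 7 not called, with a median of -0.19. Wnt5a, a non-canonical ligand of the mesenchyme, ran from 7.91 through 8.36 to 10.28 in uterus against at most 6.38, without overlap (5.21 ± 0.23, limma adjusted p = 5.78e-23). Wnt16 (1.99), Wnt4 (1.75), Wnt5b (1.59) and Wnt9a (1.43) were the other higher ligands. Of 25 receptors, agonists, inhibitors and targets, 14 were higher and 4 lower, with a median of 1.19. Ror2, a receptor of Wnt5a, was higher by 3.23 ± 0.24 (adjusted p = 2.84e-15), and Fzd2 ran from 5.40 through 6.84 to 8.89 against at most 6.32 (3.29 ± 0.19, adjusted p = 1.56e-18). The secreted inhibitors Sfrp2 (4.53) and Frzb (3.33) and the agonist Rspo1 (3.32) were all called higher. Axin2, a feedback target of the canonical pathway, was higher by 1.34 on its brightest probe set, but its other probe set gave -0.09. The differences of Frzb and Wnt9a were 2.16 and 0.62 with the mean of all probe sets.

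Smaller signalling lists were mixed. Aldh1a2, the retinoic acid synthase of stroma, ran from 6.74 through 8.83 to 10.26 and overlapped the other samples only at its lowest value, since their maximum was 6.82 (5.16 ± 0.25, limma adjusted p = 1.79e-21). Of 17 retinoid genes 9 were higher and 3 lower, among them Crabp2, a retinoic acid carrier (2.64), and Rdh10, which makes retinal (1.93). Of 20 BMP and related genes 8 were higher and 3 lower, and of 13 genes of the IGF system 7 and 2. Igfbp6 (3.84) and Pappa, the protease that frees IGF from binding proteins (1.76, and 1.14 with the mean of all probe sets) were among the latter list's higher genes. Of 16 prostaglandin genes 7 were higher and 3 lower, with Ptgs2, the inducible cyclooxygenase, at 3.66 ± 0.50 (adjusted p = 6.37e-08).

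**Figure D4:**
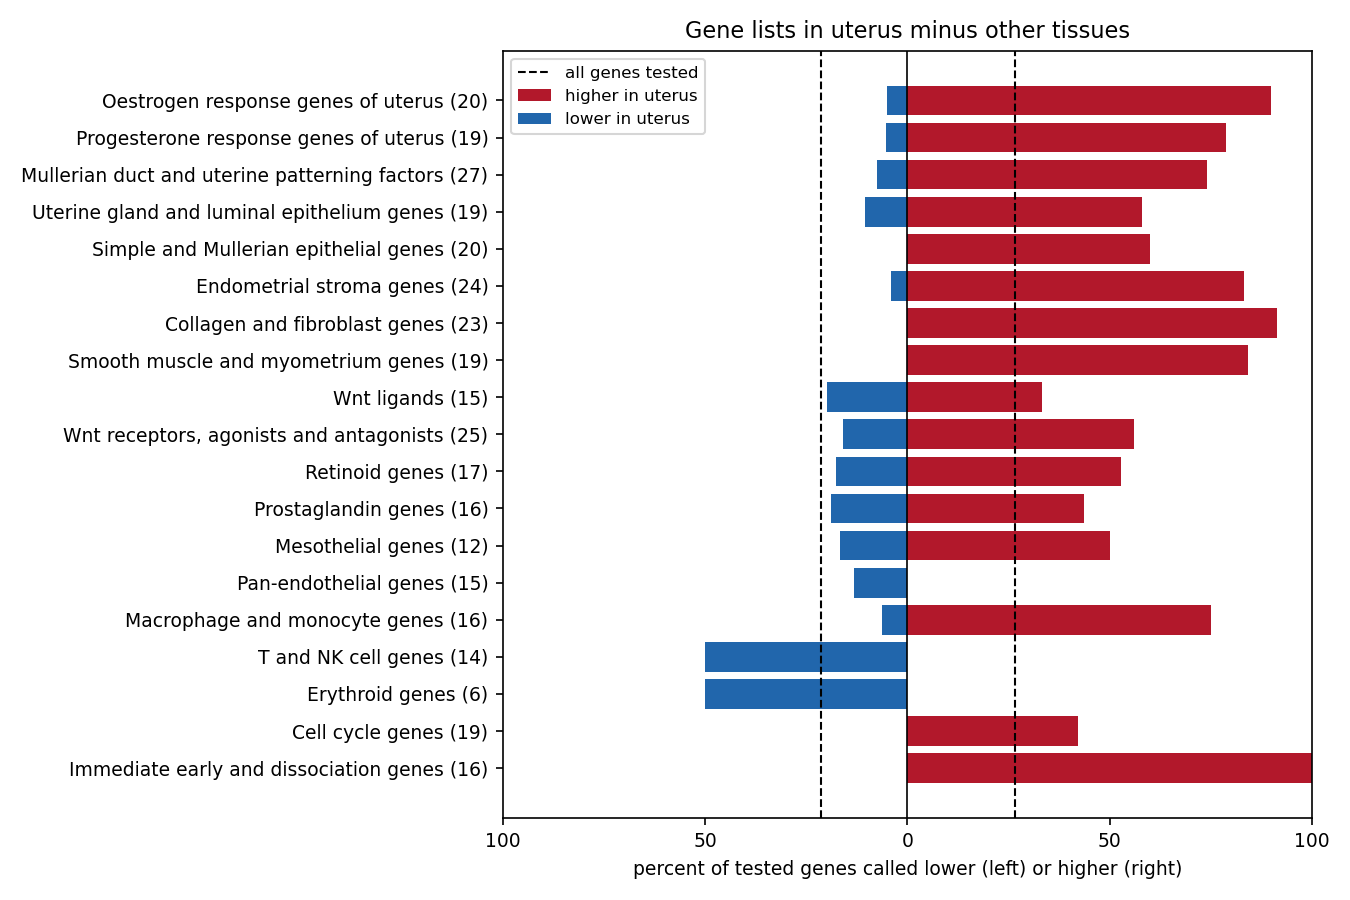
Percent of the tested genes of 19 lists that were called higher (bars to the right) or lower (bars to the left) in uterus than in the mean of the 5 other tissues; dashed lines mark the shares over all genes, 26.5% and 21.3%. Immediate early, collagen, oestrogen, smooth muscle and stroma genes reach farthest to the right, and T and NK cell genes and erythroid genes to the left.

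Markers of the cell types that the sorted uterus samples could hold were counted alongside. Of 20 general epithelial genes 12 were higher and none lower. Epcam lay between 9.59 and 11.25 (1.33 ± 0.24, limma adjusted p = 1.03e-05), Krt7 between 8.68 and 10.81 (2.80 ± 0.41, adjusted p = 2.72e-07) and Wfdc2, a secreted protein of Müllerian epithelium, between 9.18 and 11.92 (3.89 ± 0.36, adjusted p = 2.32e-12). Without liver among the other tissues the Epcam difference was -0.07, and without intestine it was 2.09. The mean level of the epithelial list was 7.79 to 9.97 in uterus and 7.7 to 8.73 in prostate. It was 9.02 to 9.4 in intestine and 7.68 to 9.23 in stomach, but 5.37 to 6.75 in lung and 4.31 to 5.32 in liver. None of 15 endothelial genes was higher, 2 were lower and the median was -0.58. The lower ones were Egfl7 (-1.03), a secreted vessel protein, and Cldn5 (-1.0), the endothelial claudin. The mean level of the endothelial list was 4.99 to 7.14 in uterus and 4.54 to 7.55 in prostate. It was 5.91 to 10.68 in lung and 5.76 to 9.88 in liver, but 3.35 to 3.74 in intestine and 3.78 to 4.83 in stomach. T and NK cell genes had 0 higher and 7 lower of 14, including Cd2 at -2.0 (-1.09 without lung), and B cell genes 1 and 5 of 10. Of 16 macrophage genes 12 were higher and 1, Vsig4, lower, with a median of 2.14, and of 8 MHC class II genes 4 were higher. Of 16 neutrophil, mast cell and eosinophil genes 2 were higher and 4 lower, of 9 lymphatic and sinusoid genes 4 and 4, and of 9 ciliated cell genes 2 and 2. Of 12 mesothelial genes 6 were higher and 2 lower; Wt1, Aldh1a2 and Rspo1, which stroma also expresses, had the largest differences. Of 6 erythroid genes 3 were lower and none higher. Hba-a1, an alpha globin, had a uterus median of 6.34 against 12.68 in the other samples, with overlapping ranges (-4.58 ± 0.54, adjusted p = 2.11e-09).

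Markers of neighbouring or foreign tissues were checked for admixture. The mean level of the 14 ovary genes on the array was 3.44 to 3.79 in uterus, near the array median, and 2.94 to 3.55 in the other samples. The oocyte and granulosa genes Zp1, Zp2, Zp3, Bmp15, Amh, Inha and Fshr were near background and not tested. Of the 5 genes of the list that were tested, Ovgp1 and Foxl2 were higher, both above all 44 other samples, and Cyp11a1, a steroid synthesis enzyme, was lower. Ovgp1, the oviduct glycoprotein, had levels from 6.62 through 7.87 to 8.88 against at most 5.68 (3.62 ± 0.22, limma adjusted p = 4.99e-18), and whether it comes from oviduct cells was not tested. Of the marker lists of the compared organs, 11 of 11 liver, 10 of 10 intestine, 10 of 10 stomach and 11 of 12 prostate genes were lower in uterus. Each list's own organ is part of the compared mean, so such counts, also that of lung genes, cannot show whether its cells were admixed. The mean level of the liver list was 2.79 to 3.42 in uterus and 2.91 to 3.48 in prostate. The intestine list was at 3.12 to 3.6 in uterus and 3.1 to 3.52 in lung. The stomach list was at 3.08 to 3.54 in uterus and 3.23 to 3.79 in lung, and the prostate list at 2.97 to 3.8 and 2.95 to 4.96. Of 9 lung genes 6 were lower and 2 higher. The latter were Aqp5, a water channel of several glands, and Sftpd, surfactant protein D, whose uterus levels ran from 8.91 through 10.37 to 11.65 and whose lung mean was 8.9 (5.28 ± 0.31, adjusted p = 1.31e-18). In sex-linked genes, Xist was higher by 5.94 ± 0.70 (adjusted p = 1.59e-09) and Eif2s3y, Kdm5d and Uty had differences of -4.61, -2.93 and -1.99, with -2.42 for Eif2s3y and -1.17 for Kdm5d with the mean of all probe sets.

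Immediate early genes, which respond to dissociation of tissue as well as to growth factors, were higher in 16 of 16 cases, with a median of 1.48. Their mean level lay between 11.02 and 11.45 in uterus, within the 10.29 to 11.67 of prostate and near the 10.64 to 11.32 of lung, and above the 7.91 to 9.94 spanned by intestine, liver and stomach. The count therefore goes with the last 3 tissues, and its part in the other results was not tested. Of 19 cell cycle genes 8 were higher and none lower, with a median of 0.58. In Prom1-positive cells 10 were higher, and in Prom1-negative cells 0 were higher and 1 lower. The list's mean level was 5.99 to 7.20 in uterus, 6.66 to 8.27 in intestine and 4.9 to 8.04 in stomach. It was 3.72 to 6.15 in prostate, lung and liver. Mcm2, a replication helicase subunit, was higher by 1.35. Top2a was higher by 1.19, but by 0.03 with the mean of all probe sets (limma adjusted p = 0.815).

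Each other tissue gave a different distance. The mean profile of uterus over the 14081 genes had a Pearson correlation of 0.903 with prostate, 0.898 with lung, 0.786 with stomach, 0.744 with liver and 0.731 with intestine. These values are across genes, which are not independent, and describe the order of similarity only. By limma, 28.6% of genes differed from prostate (14.8% higher in uterus), 31.9% from lung (18.9% higher), 51% from intestine (25.8% higher), 51.2% from stomach (30.5% higher) and 55.4% from liver (33.9% higher). These comparisons share the uterus samples. Of the 3728 genes higher in uterus than in the mean, the highest other tissue was lung in 1423, prostate in 1082, intestine in 610, liver in 271 and stomach in the rest.

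The largest single-tissue differences were tissue products. Against prostate the uterus was lowest for Sbp (-10.62), Pbsn (-10.53) and Pate4 (-10.42), which encode or are expressed as prostate secretory proteins. Against lung these were Sftpc (-9.78), Scgb1a1 (-9.47) and Chil4 (-7.62, and -4.11 with the mean of all probe sets), and against intestine the fatty acid-binding Fabp2 (-10.49), Fabp1 (-10.21) and the secreted Reg1 (-9.86). Against liver they were albumin, Alb (-10.71), the urinary protein Mup3 (-10.66) and Cyp3a11 (-10.28), and against stomach the gastric mucosal Gkn2 (-10.58), Tff2 (-10.23) and Gkn1 (-10.12). All 7 uterus levels of these genes except Chil4 were near background, so the other values are lower bounds. In the other direction, Sprr2f was among the 3 largest differences against lung (9.10), intestine (9.15), liver (9.01) and stomach (8.50).

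Some uterus genes were shared with 1 other organ. Prap1, a proline-rich acidic secreted protein, ran from 11.31 through 12.01 to 13.68 in uterus and differed by 9.16 from prostate, 9.25 from lung, 9.04 from liver and 8.62 from stomach. The intestine mean was 12.42, and the difference from it was -0.27 and not called (limma adjusted p = 0.352). Clca1, a secreted protein of mucous cells, ran from 10.63 through 11.45 to 12.32 in uterus with an intestine mean of 11.47, a difference of -0.03 (adjusted p = 0.967), and a stomach mean of 8.17. Prom1 itself was higher in uterus than in the mean of the other tissues by 2.86 ± 0.23 (adjusted p = 3.52e-14; 1.68 without liver), yet against stomach the difference was -0.39 (adjusted p = 0.28).

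The contrast was then taken within each sort. The Prom1 level lay between 10.82 and 11.99 in positive and between 9.49 and 10.52 in negative uterus samples. The negative uterus samples thus also held Prom1 RNA, well above the array median. In Prom1-positive cells 4887 genes (34.7%) were called, 2915 higher (20.7%) and 1972 lower (14%), and in Prom1-negative cells 4164 (29.6%), 2306 higher (16.4%) and 1858 lower (13.2%). The test of the difference between these contrasts, an interaction term, called 1180 genes (8.38%), of which 721 (5.12%) had the larger value in positive cells and 459 (3.26%) in negative cells. Arrays of 2 uterus samples of the same sort correlated at 0.96 to 0.988 over genes, and those of different sorts at 0.896 to 0.949. The interaction count rested on few samples, since it was 662 without negative sample 1, 763 without negative sample 2 and 1837 without the stomach library of low upper quartile. The count for negative cells was 2660 without negative sample 1 and 2724 without negative sample 2. Negative samples 1 and 2 are those with the high 3′/5′ ratios, whose part in these counts was not tested.

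Macrophage and antigen presentation genes had larger contrasts in the positive than in the negative uterus cells. Of 16 macrophage genes, 13 were higher and none lower in positive cells with a median of 3.69, against 1 higher, 3 lower and a median of 0.43 in negative cells. The interaction term was called in 10 of the 16. Ccr2, the receptor that brings monocytes to tissue, lay between 8.96 and 9.78 in positive and between 6.68 and 7.15 in negative uterus cells, and Cx3cr1, the fractalkine receptor, between 9.82 and 10.44 and between 5.86 and 6.46. Neither gene overlapped between the sorts, and their interaction values were 3.65 (limma adjusted p = 1.83e-05) and 4.3 (adjusted p = 1.07e-06). The mean level of the list was 9.86 to 10.66 in the 4 positive and 6.53 to 6.88 in the 3 negative uterus samples. It was also high in positive lung cells, at 8.43 to 10.65, in negative liver cells, at 9.62 to 10.24, and in positive prostate cells, at 7.32 to 9.56. Of 8 MHC class II genes 8 were higher in positive uterus cells while none was higher and 2 were lower in negative ones, and 6 were called in the interaction, with Ciita, their master regulator, at 3.66 (adjusted p = 6.88e-06). The mean level of the MHC class II list was 9.49 to 9.96 in positive and 7.18 to 7.43 in negative uterus cells, against 8.65 to 10.51 in positive lung, 8.92 to 10.38 in negative lung and 8.58 to 10.35 in negative liver cells. With the mean of all probe sets the interaction values of Cx3cr1 and Ciita were 2.82 and 2.19, still called. The largest named interaction values above 0 were those of Gpr34 (4.69), Cd22 (4.68), P2ry12 (4.65), Ltc4s (4.61) and Ifi209 (4.6). Gpr34 and P2ry12 are lysolipid and purine receptors, in that order, of tissue macrophages. P2ry12 had levels of 6.81, 7.14, 7.47 and 6.91 in positive and of 2.51, 2.28 and 2.79 in negative uterus cells.

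Hox genes were among those with the larger contrast in negative cells. The interaction was called in 15 of 27 patterning genes, of which 12 had the larger contrast in negative and 3 in positive cells. It was called in 7 of 25 Wnt receptor and target, 6 of 24 stromal, 3 of 23 collagen and 2 of 19 smooth muscle genes, each with the larger contrast in negative cells, so most genes of these 4 lists were not called. Hoxa10 lay between 6.78 and 7.91 in positive and between 9.0 and 9.88 in negative uterus cells (interaction -2.06, limma adjusted p = 0.00225, or 0.0617 with all 117 samples in the fit), and Hoxa11 between 4.05 and 6.06 and between 7.45 and 7.52 (-2.33, adjusted p = 5.24e-06). Foxl2 lay between 5.84 and 7.15 and between 8.71 and 9.30 (-2.74, adjusted p = 2.72e-10), and Oxtr between 5.22 and 6.97 and between 8.08 and 9.13 (-2.64, adjusted p = 1.27e-08). None of these 4 genes overlapped between the sorts, and with the mean of all probe sets the interaction values of Foxl2 and Oxtr were -1.59 and -1.44, still called. Pax8 and Msx1 went the opposite way. Pax8 lay between 7.27 and 8.40 in positive and between 4.71 and 6.02 in negative cells (2.33, adjusted p = 9.82e-08), and Msx1 between 8.40 and 9.14 and between 6.28 and 7.29 (2.49, adjusted p = 0.000985). The largest named interaction values below 0 were those of Rorb (-3.4), Dnm3os, the host RNA of a microRNA cluster of mesenchyme (-3.13), Tmem45a (-3.02), Lsamp (-3.01) and Tenm3 (-2.92). The mean level of the collagen list was 7.88 to 8.90 in positive and 10.01 to 10.22 in negative uterus cells, and that of the mesothelial list 4.54 to 5.04 and 6.53 to 6.59. Which part of a difference between the sorts goes with such a change in cell makeup was not tested.

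**Figure D5:**
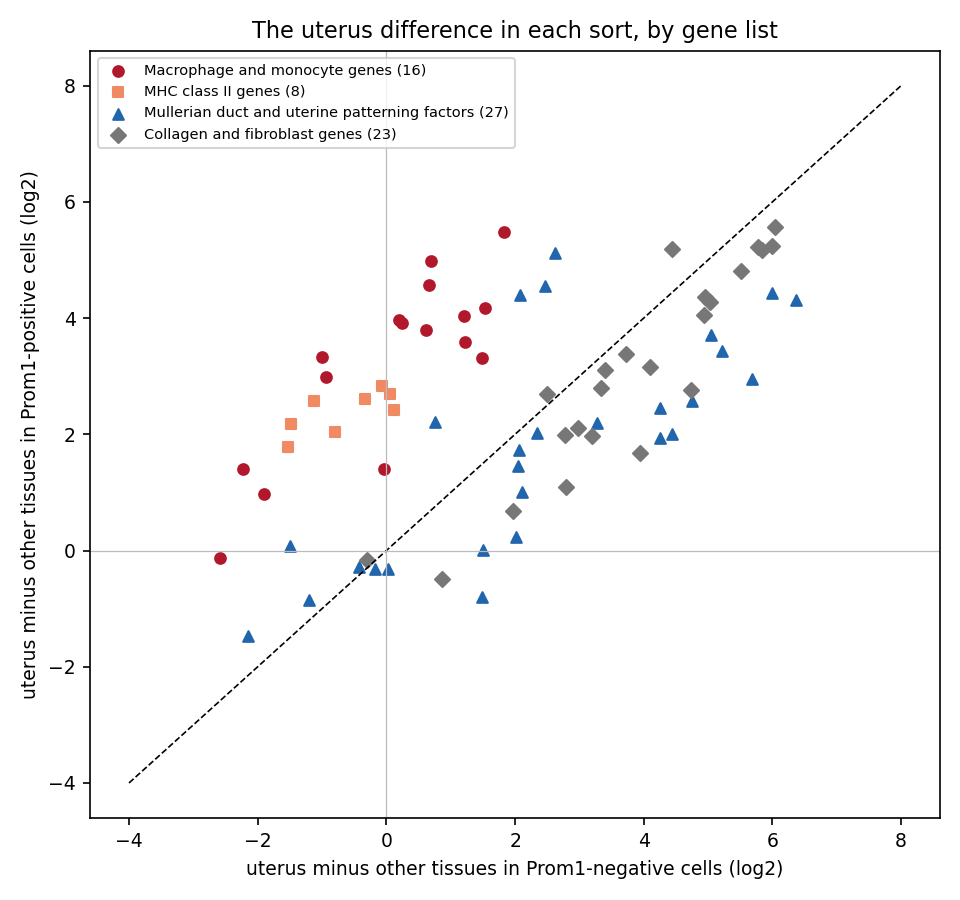
Uterus minus other tissues, log2, in Prom1-negative cells (horizontal) and Prom1-positive cells (vertical) for the genes of the macrophage (16), MHC class II (8), patterning (27) and collagen (23) lists, with the line of equal values. Macrophage and MHC class II genes lie above the line and most collagen genes below it.

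The tissue pattern was read once more in samples that the comparison did not use. The series holds 66 tumour samples of 7 types, taken as frozen tissue without sorting, among them 9 uterine adenocarcinomas, which were set against the mean of the 6 other types in a fit of their own. There 4013 of 13456 genes (29.8%) were called, 2332 higher (17.3%) and 1681 lower (12.5%). Of the 573 genes higher in normal uterus than in each other tissue, 533 were tested in tumours, and 55.7% were higher and 12 (2.25%) lower in uterine adenocarcinoma, with a median difference of 0.67. Of the 73 genes without overlap, 69 were tested, 48 (69.6%) were higher and none was lower. Of the 81 genes lower than in each tissue, 42 (51.9%) were lower and 1 was higher.

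Emx2 was the patterning gene with the largest tumour difference among those examined here, with levels from 6.03 to 8.80 in the 9 uterine tumours and 4.38 above the mean of the other types (limma adjusted p = 4.5e-18). Fxyd4 lay between 8.26 and 11.24 and differed by 4.94 (adjusted p = 4.53e-11), and Padi1 lay between 4.17 and 9.71 and differed by 4.73 ± 0.46 (adjusted p = 3.27e-12). Sprr2f ranged from 3.27 to 12.69 with a median of 11.92, so that it was near background in at least 1 uterine tumour, and its difference was 4.83 ± 0.72 (adjusted p = 5.06e-07). It was also high in squamous carcinoma of skin, at 6.50 to 11.55. Pgr ranged from 2.54 to 11.15 with a median of 7.46, a difference of 2.97 (adjusted p = 6.45e-05), or 1.42 with the mean of all probe sets. Col6a4 (0.28, adjusted p = 0.212), Dio2 (0.96, adjusted p = 0.101) and A2m (0.68, adjusted p = 0.44), all separate in normal cells, were not called in tumours, although Dio2 passed without uterine tumour 3 (adjusted p = 0.0482) or 6 (0.0379), with all 117 samples in the fit (0.045) and with the other tumour samples weighted equally (0.0473). Of the lists, 14 of 20 oestrogen genes and 16 of 25 patterning genes were higher in uterine adenocarcinoma and 0 and 2 lower, whereas 2 of 16 macrophage genes were higher and none lower.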

How the data were processed

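The deposited log2 expression values of 117 single-colour Affymetrix mouse arrays were used; the authors made them with RMA and Partek 6.6, per the submitters' processing notes, and further steps and the genome build are not given in the sources used here. The values (1.63 to 14.18) were not normalized again. Of 45141 probe sets, 28898 had 1 gene symbol in the platform annotation, 551 several and 15692 none; 28689 of those with 1 were matched to RefSeq (GRCm38.p6) by Entrez ID. Each of 17097 genes took its brightest probe set over all arrays. Genes above the array median in at least 3 arrays were fitted with limma 3.58.1 in R 4.3.3 (lmFit, eBayes) on 12 group means over 51 arrays, and 66 tumours in a separate fit. Benjamini-Hochberg adjusted p under 0.05 counted as called, and the fits were tested on simulated data.

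Samples were grouped by their titles. Named genes were Prom1, members of 34 gene lists (607 entries, 504 tested), the 15 largest higher and 10 largest lower genes without overlap between uterus and other samples, the 3 largest each way against each tissue and the 5 largest each way for the interaction, passing over predicted and clone names. The genes described by their spread among uterus samples were chosen after their values were seen. The comparison, lists and tests were chosen with earlier results of these data known. The number of arrays limits the precision. The filter, probe set choice, scaling, variance model, array weights, tissues and each sample in turn were varied. Promoter sequences came from RefSeq. Python 3.11.15 with pandas 2.3.3 and matplotlib 3.10.9 drew the figures.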

Additional observations from a re-analysis of the deposited data

Results flagged for a closer look

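In 11 of the 130 genes examined, 1 of the 4 Prom1-positive uterus samples stood apart from the other 3 by Dixon's criterion (gap over range above its 95% critical value), which chance meets in about 1 in 20 groups. Sample 1 was lowest for the patterning genes Hoxa10 (6.78, the next sample 7.77) and Foxl2 (5.84, next 7.11) and for the teneurin Tenm3 (4.92, next 6.47), and highest for Greb1 (8.6, next 7.69). Sample 4 was highest for Hba-a1 (6.95, next 4.42), Wnt16 (6.95, next 4.31), Mcm2 (7.93) and Isl1 (3.09), and lowest for Pate4 (2.13). Sample 3 was lowest for Krt7 (9.61, next 10.71) and highest for Hoxd13 (2.8). The values of Isl1, Pate4 and Hoxd13 lie below the array median.

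The uterus contrast differed between Prom1-positive and Prom1-negative cells by limma's interaction term in 1180 genes. Among the named genes it was larger in positive cells for Gpr34 (4.69), Cd22 (4.68), P2ry12 (4.65), Ltc4s (4.61), Ifi209 (4.6), Cx3cr1 (4.3), Cd68 (3.76), Ciita (3.66), Ccr2 (3.65), Hpgds, the haematopoietic prostaglandin D synthase (3.59), Msx1 (2.49) and Pax8 (2.33). It was larger in negative cells for Rorb (-3.4), Dnm3os (-3.13), Tmem45a (-3.02), Lsamp (-3.01), Tenm3 (-2.92), Foxl2 (-2.74), Oxtr (-2.64), Hoxd9 (-2.42), Hoxa11 (-2.33), Hsd11b2 (-2.31), Hoxd10 (-2.19), Axin2 (-2.12), Hoxa10 (-2.06) and Col6a4 (-2.01). Hpgds lay between 7.0 and 7.75 in positive and between 3.60 and 3.78 in negative uterus cells. The macrophage list stood at 9.86 to 10.66 and 6.53 to 6.88 in the same samples, and its part in these values was not tested.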

How the results depend on the processing

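Of 6 counts of called genes, array weights moved 5: the uterus contrast from 6727 to 10264, that in Prom1-positive cells to 8787, that in Prom1-negative cells to 9021, the interaction to 5506 and the genes higher or lower than in each tissue from 654 to 1306. The last count was 393 with the stricter filter on dim genes, 1181 without lung and 1036 without stomach. The interaction was 2216 without arrays of upper quartile under 6 and 1801 without stomach. Leaving out 1 sample at a time gave 5625 to 7717 genes for the uterus contrast, 3827 to 6258 in positive cells, 2660 to 5082 in negative cells, 662 to 1837 for the interaction and 531 to 794 for each tissue; the extremes of the negative cells and the interaction came without Uterus_neg 1 and without the stomach library of low upper quartile, and 2724 and 763 without Uterus_neg 2. Leaving out 1 uterine adenocarcinoma gave 3514 to 3953 tumour calls. Repeated quantile normalization moved the share of higher calls in positive cells from 59.6% to 48.8% and their median by -0.13. Of 11276 comparisons of single genes, 11259 kept direction and side of the threshold, 12 no longer passed, 4 newly passed and 1 turned: Epcam, -0.07 without liver (limma adjusted p = 0.815). Sizes changed by over 1.5 times in 60 comparisons covering 49 of these results, 41 of the 60 with the mean of all probe sets. Uterus samples of the 2 sorts with the same replicate number had correlations of -0.344 to 0.103 over 3 pairs. Those with unlike numbers had -0.39 to 0.386 over 9 pairs. So few pairs cannot show whether the numbers pair the samples. The sample codes of negative samples 1, 2 and 3 come directly before those of positive samples 2, 3 and 4. Pairing by code was not tested. With the block by replicate number the counts were 6351, 4833, 3612, 1081 and 607. The cause of these changes was not tested. Probe sets near background limit falls to lower bounds.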
